A study of Homo sapiens with 18 samples.

Results

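The comparison set 3 libraries labelled ACTB-WT against 3 labelled Actin KO, 6 of the 18 libraries of the series, across every gene expressed in them. Members were all gene rows with enough counts to be tested, 13882 of 60683 rows, and 36029 rows held no count in any library of the table. All 6 libraries came from HCT-116, a long-established line from a human colorectal carcinoma, in which actin had been knocked out. By the series design the Actin KO cells stably carried an empty construct and the ACTB-WT cells stably carried wild-type actin, which the sample labels call over-expression. Further groups are used for side-by-side values: ACTB-mut, the same knockout cells with the H73A form of actin, which shares the Actin KO controls, and the SETD3 control and knockout libraries, which came from a separately normalised table. The labels name neither the promoter of the construct nor whether a line was 1 clone, and they do not say whether the 3 libraries of each group came from distinct cultures. The p-values therefore measure only the spread between these libraries.

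The targeted gene was read first. ACTB, the beta-actin gene (chromosome 7, 5527147 to 5563784, minus strand), stood at 16.7, 24.9 and 14.9 counts per 1000000 counts (CPM) in the Actin KO libraries and at 31.0, 29.2 and 23.2 CPM in those labelled ACTB-WT. The lowest ACTB-WT library lay below the highest Actin KO library, and the log2 change of 0.56 (SE 0.28, adjusted p = 0.496) did not pass the test, so the RNA gave no check of the label and the groups are named here as labelled. ACTG1, the gamma-actin gene, stood at 7356 ± 403 CPM in the Actin KO libraries and 8076 ± 452 CPM in the ACTB-WT libraries (SD, n = 3; log2 change 0.13, adjusted p = 0.616). Of 10 epithelial markers of HCT-116, 7 were tested and 0 passed, with a median log2 change of 0.24 (0.06 without Actin KO library 1), and the simple-epithelium keratin KRT18 and the adhesion molecule EPCAM were abundant in both groups, at 4549 and 6075 CPM and at 548 and 647 CPM.

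Beta- and gamma-actin are the cytoplasmic actins that build the cortical mesh, stress fibres and adhesions of a cell, and monomeric actin also binds transcription co-activators of the MRTF family and sits in nuclear chromatin-remodelling complexes. Tension on actin filaments feeds the YAP and TAZ co-activators. Epithelial colon cells also carry a basal level of interferon-stimulated antiviral genes, BMP signals that set differentiation along the crypt, and keratin filaments that differ between simple and stratified epithelia. The lists described below were built around these processes and around gene families defined by symbol.

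Total counts were 7512656, 8099698 and 8774607 in Actin KO and 5144386, 7601018 and 5726946 in ACTB-WT, with normalisation factors between 0.980 and 1.02 and mitochondrial transcripts between 0.636% and 1.61% of counts over the 9 libraries of the table. A gene was called when its adjusted p from edgeR's quasi-likelihood test, taken over all 13882 genes, was below 0.05. That gave 155 called genes, 1.12% of those tested, of which 61 were higher in ACTB-WT (0.439%) and 94 lower (0.677%), and 106 differed at least 2-fold (0.764%). In bulk RNA, fewer cells of a type and less RNA per cell cannot be told apart. The 3 libraries of one group lay wholly above the 3 of the other for 2322 genes, 16.7% of those tested. Of the 155, 62 were called in each of the 6 fits that left out 1 library and 20 in none of them, and where a gene described below lost its call the libraries are named. Genes outside the rule for named genes, and all uncalled genes, were chosen for mention after their values were seen. Part of that rule named the called genes with the largest changes only where the groups did not overlap. For those genes the lack of overlap was set by the rule.

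Across the whole transcriptome the 2 groups were centred on each other. The median log2 change of the tested genes was -0.01, with quartiles of -0.40 and 0.37, and 6848 genes had a positive and 7034 a negative value. Called genes spread over all sizes: among the higher genes 22 changed by less than 1 on the log2 scale, 21 by 1 to 2, 9 by 2 to 4 and 9 by 4 or more, and among the lower genes the counts were 27, 35, 17 and 15. The fitted values above 4 include genes with no count in one group, whose fitted change depends on the prior count. The median called change was 1.25 upward and -1.45 downward. The smallest called rise belonged to YBX1, an abundant RNA-binding protein, which stood at 1907, 2069 and 2026 CPM in the Actin KO libraries and 2756, 2740 and 2596 CPM in the ACTB-WT libraries (log2 change 0.43, SE 0.08, adjusted p = 0.0170), and was called in 1 of the 6 fits without a library, that without ACTB-WT library 3 (adjusted p up to 0.116 in the others).

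How many genes passed depended on their level. No gene with a mean under 1 CPM was called, of 650 tested, and between 1 and 5 CPM 15 of 4207 were called (0.357%), each with a fitted change of at least 4.66 on the log2 scale. Between 5 and 20 CPM 23 of 3963 passed, 9 higher and 14 lower, with a median absolute change of 2.94. Between 20 and 100 CPM 23 rose and 39 fell of 3455 (1.79%), and between 100 and 1000 CPM 24 rose and 26 fell of 1472 (3.40%), with a median absolute change of 0.87. Above 1000 CPM 5 of 135 genes passed (3.70%): YBX1 and the histone gene H4C3 rose (the latter called only without Actin KO library 3 or ACTB-WT library 2 among the 6, adjusted p up to 0.124), and ISG15, the metal-binding MT2A and the galectin LGALS1 fell. The biological coefficient of variation estimated by edgeR fell from 87.3% at 1 to 5 CPM to 13.5% above 1000 CPM, and smaller changes were called only in abundant genes. The median log2 change ran from -0.03 to 0.05 over the classes from 1 CPM upward.

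**Figure D1:**
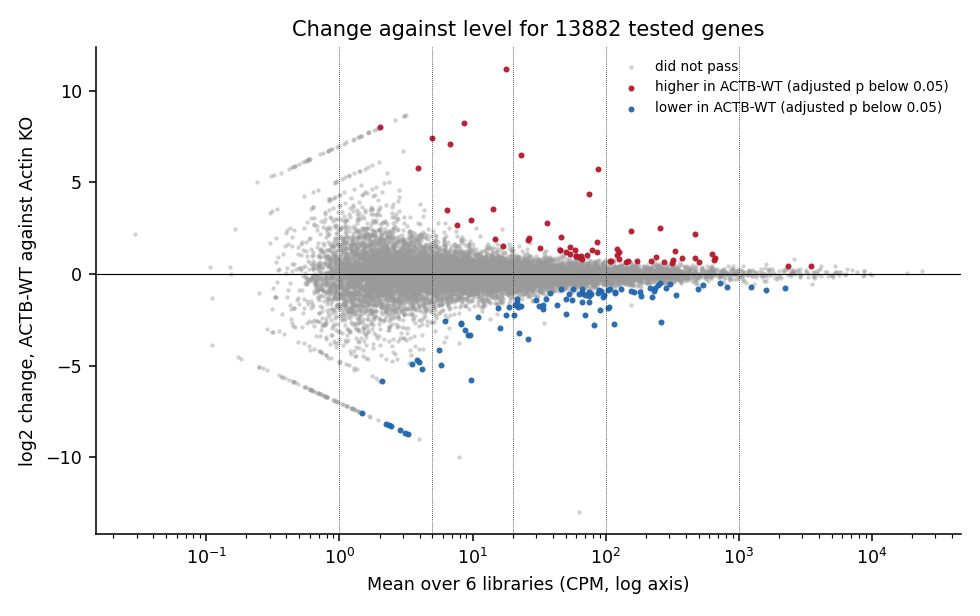
Each point is 1 tested gene, with its mean level over the 6 libraries in CPM (log axis) on the horizontal axis and its log2 change of ACTB-WT against Actin KO on the vertical axis. Called genes are coloured (61 higher, 94 lower), and the smallest change that was called shrank from 4.66 at 1 to 5 CPM to 0.43 above 1000 CPM.

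By transcript class, 145 of the called genes were protein coding (53 higher and 92 lower of 11603 tested, 1.25%). Long non-coding RNAs gave 6 higher and 2 lower of 1534 (0.522%), and pseudogenes 1 higher of 447 (0.224%), against 1.12% of all tested genes. The higher long non-coding RNAs included the small nucleolar RNA hosts SNHG9, at 84.8, 62.1 and 90.8 CPM in the Actin KO libraries and 178, 160 and 156 CPM in the ACTB-WT libraries (log2 change 1.05, SE 0.17, adjusted p = 0.0046), and SNHG19, at 43.1 and 86.8 CPM (1.01, adjusted p = 0.0187; lost without Actin KO library 1 or 3 or ACTB-WT library 1, up to 0.116). Of 25 host genes tested these 2 rose, against 0.439% of all tested genes, and the median of the list was -0.03.

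A group of interferon-stimulated genes fell in ACTB-WT. The list held 54 genes, of which 38 were tested, and 8 fell and 0 rose, against 0.677% and 0.439% of all tested genes. Strongly inducible members such as MX1, IFIT1, RSAD2 and IFI44L were too low to be tested. The median log2 change was -0.89, with 33 negative and 5 positive values, and for 22 of the 38 every ACTB-WT library lay below every Actin KO library, against 9.08% of all genes. The median ran from -1.08 to -0.75 over the alternative analyses. The list was chosen with earlier results of these libraries known, so its count is a description.

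The promoters of the 4 genes IFI6, ISG15, OAS3 and IFI27 are printed because they belong to called members of the list and carry the motif to which the interferon-activated factor ISGF3 binds. Each runs 5′ to 3′ on the gene's strand from 250 bases before to 50 bases after the gene start in RefSeq (GRCh38.p14), at chr1:27672143-27672442 (minus) for IFI6, chr1:1013247-1013546 (plus) for ISG15, chr12:112938224-112938523 (plus) for OAS3 and chr14:94110486-94110785 (plus) for IFI27. Capitals mark the interferon-stimulated response element core, searched as GAAA, any 2 bases and GAAA again, on either strand, with overlapping matches run together.
IFI6: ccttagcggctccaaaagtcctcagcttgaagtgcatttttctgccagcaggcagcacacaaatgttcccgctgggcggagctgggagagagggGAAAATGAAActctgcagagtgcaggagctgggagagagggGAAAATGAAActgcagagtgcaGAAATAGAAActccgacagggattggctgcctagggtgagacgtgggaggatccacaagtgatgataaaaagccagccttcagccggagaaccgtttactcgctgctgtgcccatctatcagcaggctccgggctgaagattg
ISG15: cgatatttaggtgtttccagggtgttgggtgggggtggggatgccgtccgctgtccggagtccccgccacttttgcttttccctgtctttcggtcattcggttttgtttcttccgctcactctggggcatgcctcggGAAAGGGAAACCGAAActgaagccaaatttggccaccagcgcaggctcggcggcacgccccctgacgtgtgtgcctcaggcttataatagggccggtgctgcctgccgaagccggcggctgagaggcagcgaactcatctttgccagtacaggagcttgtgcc
OAS3: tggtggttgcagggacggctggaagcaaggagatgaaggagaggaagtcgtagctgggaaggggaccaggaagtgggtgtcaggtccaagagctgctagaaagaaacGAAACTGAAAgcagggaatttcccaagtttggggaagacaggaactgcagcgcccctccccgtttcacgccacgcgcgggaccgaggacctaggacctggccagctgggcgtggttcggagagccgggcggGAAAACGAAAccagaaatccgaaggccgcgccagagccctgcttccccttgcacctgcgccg
IFI27: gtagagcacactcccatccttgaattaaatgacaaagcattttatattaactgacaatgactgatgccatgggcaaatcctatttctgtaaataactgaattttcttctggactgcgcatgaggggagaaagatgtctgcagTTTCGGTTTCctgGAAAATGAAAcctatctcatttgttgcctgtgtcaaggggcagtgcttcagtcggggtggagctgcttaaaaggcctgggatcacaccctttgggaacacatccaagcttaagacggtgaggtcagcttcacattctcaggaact
IFI6 held 3 matches and the other 3 promoters 2 each. The core was found in 996 of 27305 promoters of this length (3.65%) and in 248 of the 9719 promoters matched to tested genes (2.55%). It was found in 19 of the 29 tested interferon-stimulated genes that had a promoter in the table (65.5%), whether or not they were called. Among all lower genes 10 of 72 matched promoters held it (13.9%) and among all higher genes 1 of 45 (2.22%). The 10 include 4 of the 7 called interferon-stimulated genes with a promoter (57.1%). They also include 3 of 4 called genes of class I antigen processing, described below. The share among lower genes thus largely restates these 2 lists, which were chosen with earlier results known. The called members IRF9, OAS1 and PARP9 had no match in this window. A match describes the letters and not a bound site.

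IFI6, a mitochondrial antiviral protein whose promoter above holds 3 cores, stood at 140, 122 and 168 CPM in the Actin KO libraries and at 20.1, 26.5 and 17.2 CPM in ACTB-WT, a log2 change of -2.75 (SE 0.28, adjusted p = 8.05e-05). OAS3, which makes the oligoadenylate messenger that activates RNase L, stood at 67.5, 94.8 and 79.9 CPM and at 27.8, 35.2 and 28.8 CPM (-1.40, SE 0.22, adjusted p = 0.00391). ISG15, a ubiquitin-like modifier, stood at 1901, 1975 and 2375 CPM and at 1175, 1100 and 1181 CPM (-0.86, SE 0.11, adjusted p = 0.000885). In none of these 3 genes did the groups overlap, against 16.7% without overlap among all tested genes. For IFI6 this was a condition of the rule that named it. The most abundant of the 3 had the smallest fold. IFI27 fell from 51.5 ± 4.36 to 16.2 ± 4.09 CPM (-1.67, adjusted p = 0.0118), a call lost without Actin KO library 1 or ACTB-WT library 2 or 3 (up to 0.0780).

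Of the factors upstream only IRF9 was called among those named here. IRF9, the DNA-binding subunit of ISGF3, stood at 14.1 CPM in the Actin KO libraries and 2.16 CPM in the ACTB-WT libraries (log2 change -2.70, adjusted p = 0.0248), but like OAS1 it was called in none of the 6 fits without a library (adjusted p up to 0.169 and 0.206). Its partner STAT2, at 6.45 and 3.41 CPM (-0.89, adjusted p = 0.822), did not pass, nor did IRF7, the amplifier of the type I response, at 39.8 and 18.0 CPM (-1.15, adjusted p = 0.543). Abundant membrane restriction factors gave small values: IFITM3 stood at 1481, 1566 and 1602 CPM and at 895, 1193 and 1090 CPM (-0.55, adjusted p = 0.167), and BST2 had a log2 change of -0.45. USP18 and SP110 had positive values of 0.45 and 0.57 and were not called.

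Of 10 PARP genes tested 1 rose and 2 fell, against 0.439% and 0.677% of all genes. The family had 2 positive and 8 negative values and a median log2 change of -0.73. Its members PARP9, PARP10 and PARP12, mono-ADP-ribosyltransferases of the interferon response, had negative values and PARP1 a positive one. PARP9 had no count in the 3 ACTB-WT libraries against 4.44 CPM in Actin KO, at least 26.6-fold lower on a floor of 3 counts over the group, and was lost in 5 of the 6 fits, all but that without Actin KO library 3 (adjusted p up to 0.102). PARP10 fell from 7.72 to 0.251 CPM (log2 change -4.79, adjusted p = 0.0125; 0.0578 without Actin KO library 3), and PARP12 stood at 41.6 and 15.3 CPM (-1.44, adjusted p = 0.177). PARP1, a poly-ADP-ribosyltransferase that senses DNA breaks, rose from 110 to 183 CPM (0.74, adjusted p = 0.0185), a call kept only in the fit without ACTB-WT library 1 (up to 0.116).

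Genes of class I antigen processing also fell in part. Of 19 listed, 17 were tested, 5 fell and 0 rose, against 0.677% and 0.439% of all tested genes, with a median log2 change of -0.50. The immunoproteasome subunit PSMB9 stood at 39.4, 31.9 and 49.3 CPM in the Actin KO libraries and at 7.16, 1.21 and 4.71 CPM in the ACTB-WT libraries (-3.23, SE 0.49, adjusted p = 0.00261). TAPBP (tapasin), which loads peptide onto class I molecules, stood at 104, 96.2 and 102 CPM and at 51.7, 55.8 and 43.9 CPM (-0.99, SE 0.17, adjusted p = 0.00782). For both genes every ACTB-WT library lay below every Actin KO library, against 9.08% of all tested genes. For PSMB9 this was a condition of the rule that named it. The proteasome activator subunits PSME1 and PSME2 fell by 0.75 each (adjusted p = 0.0149 and 0.0258), lost without Actin KO library 2 or ACTB-WT library 1 or 3 for PSME1 (up to 0.0840) and without Actin KO library 1 or 3 or ACTB-WT library 2 or 3 for PSME2 (up to 0.139). HLA-E fell from 302 to 212 CPM (-0.51, adjusted p = 0.0469) and was called in none of the 6 fits (up to 0.179).

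Other members of the pathway did not pass the test. HLA-B stood at 447 and 347 CPM (log2 change -0.37) and the immunoproteasome subunit PSMB10 at 330 and 322 CPM (-0.03). The peptide transporter TAP1 stood at 97.6 and 56.8 CPM (-0.78, adjusted p = 0.109) and TAP2 at 45.5 and 22.6 CPM (-1.01, adjusted p = 0.189), neither of them called. The constitutive proteasome gave 1 called gene of 31, against 1.12% of all tested genes, and a median of 0.03. That gene was PSMC2 on chromosome 7 (-1.03, adjusted p = 0.0355, kept only without Actin KO library 3 or ACTB-WT library 3, up to 0.182). Of the 4 lower antigen genes with a promoter in the table, the 3 of PSME1, PSME2 and TAPBP held the response-element core, and that of PSMB9 did not.

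Some of the receptor genes for interferons, IFNGR2, IFNAR1, IFNAR2 and IL10RB, lie on chromosome 21, whose genes were lower as a whole in ACTB-WT, as described further on. IFNGR2 stood at 50.9 ± 5.41 CPM in the Actin KO libraries and at 25.2 ± 3.43 CPM in the ACTB-WT libraries (log2 change -1.01, adjusted p = 0.0498), a call lost in each of the 6 fits (up to 0.203). IFNAR1 stood at 43.0 and 25.8 CPM (-0.74, adjusted p = 0.275), IFNAR2 at 24.9 and 17.8 CPM (-0.48, adjusted p = 0.666) and IL10RB at 20.6 and 8.31 CPM (-1.31, adjusted p = 0.203). Whether these receptor levels bear on the target genes was not tested.

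**Figure D2:**
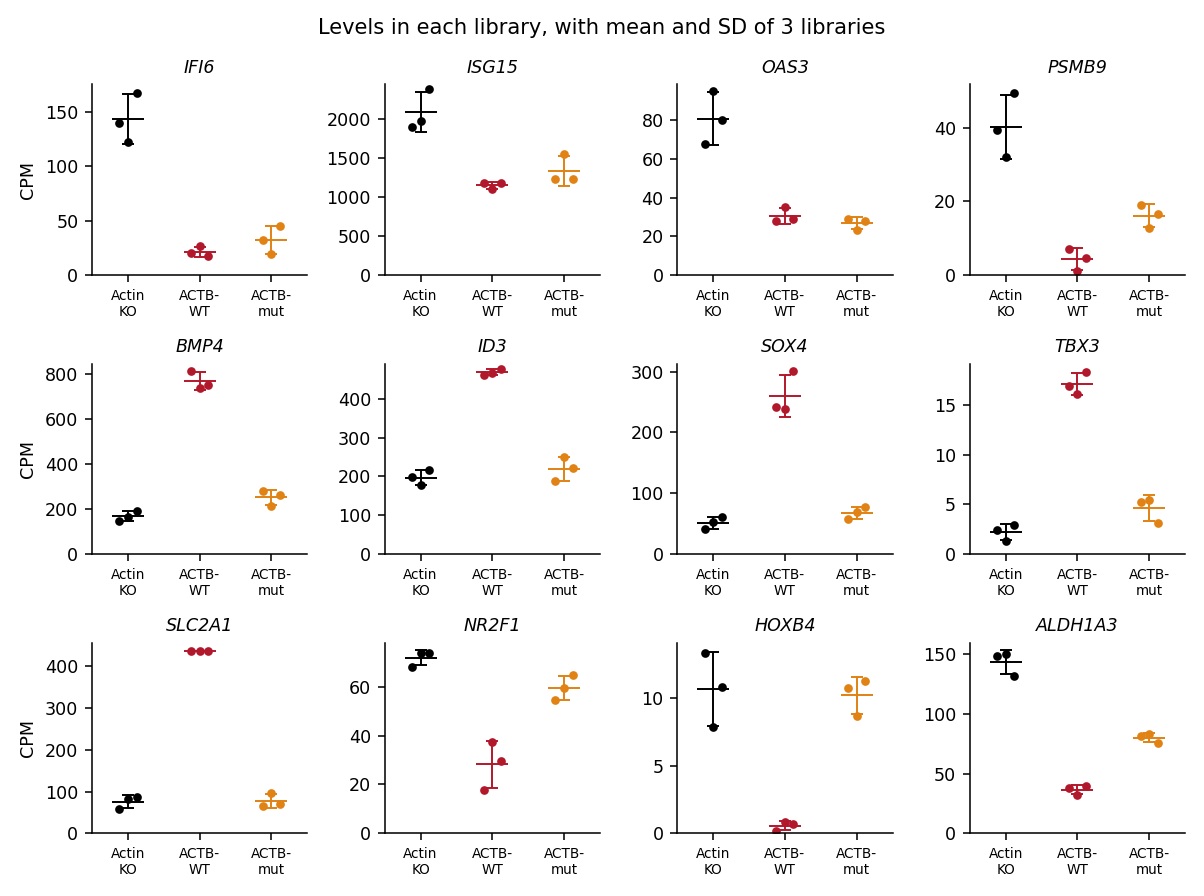
The level of 12 genes in each library, in CPM on linear axes from 0, with 3 points, the mean and the SD for each of Actin KO, ACTB-WT and ACTB-mut. IFI6, ISG15, OAS3, PSMB9, NR2F1, HOXB4 and ALDH1A3 have all 3 ACTB-WT libraries below all 3 Actin KO libraries, and BMP4, ID3, SOX4, TBX3 and SLC2A1 have them above. For IFI6, PSMB9, HOXB4, BMP4, SOX4, TBX3 and SLC2A1 this was a condition of the rule that named them.

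A group of BMP signalling genes rose. BMP ligands act through SMAD proteins, and the ID genes, inhibitors of basic helix-loop-helix factors, are their best known direct targets. Of 41 listed pathway genes 30 were tested, 4 rose and 0 fell, against 0.439% and 0.677% of all genes, and the median log2 change was 0.35 (0.30 to 0.43 over the alternatives), with 21 positive and 9 negative values. For 9 of the 30 every ACTB-WT library lay above every Actin KO library, against 7.64% of all genes. The ligand BMP4 stood at 149, 166 and 191 CPM in the Actin KO libraries and at 814, 739 and 754 CPM in the ACTB-WT libraries (2.19, SE 0.14, adjusted p = 3.82e-07). ID3 stood at 198, 178 and 215 CPM and at 461, 467 and 475 CPM (1.25, SE 0.13, adjusted p = 8.73e-05), and ID1 at 209, 246 and 260 CPM and at 428, 400 and 393 CPM (0.77, SE 0.13, adjusted p = 0.00543). In all 3 genes the lowest ACTB-WT library was above the highest Actin KO library, which for BMP4 was a condition of the rule that named it.

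ID2 rose from 11.4 ± 2.76 to 41.1 ± 12.3 CPM (by 1.84 on the log2 scale, adjusted p = 0.0102), lost without Actin KO library 2 or 3 or ACTB-WT library 3 (up to 0.0670). Feedback inhibitors had positive values without being called: SMAD6 stood at 8.76, 12.2 and 11.5 CPM in the Actin KO libraries and at 21.7, 17.7 and 28.2 CPM in the ACTB-WT libraries (1.06, adjusted p = 0.397), and the decoy receptor BAMBI at 1.46, 1.60 and 4.34 CPM and at 14.7, 13.4 and 9.41 CPM (2.33, adjusted p = 0.189). Neither pair of groups overlapped, but both genes were picked after their values were seen. All 3 ACTB-WT libraries lay above all 3 Actin KO libraries for 7.64% of all tested genes. On the TGF-beta side the signal transducer SMAD3 stood at 96.9 and 50.1 CPM (-0.95, adjusted p = 0.0806), not called.

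Single transcription factors are described next, chosen after their values were seen. The family of SOX genes gave 1 higher and 1 lower of 7 tested, against 0.439% and 0.677% of all genes. Its median log2 change was -0.08. SOX4, an HMG-box factor of progenitor cells, stood at 41.5, 52.5 and 60.6 CPM in the Actin KO libraries and at 241, 238 and 300 CPM in the ACTB-WT libraries (log2 change 2.33, SE 0.18, adjusted p = 3.59e-06), while SOX9, a factor of the crypt base, fell from 32.1 to 11.3 CPM (-1.50, adjusted p = 0.00997; 0.0523 without Actin KO library 3). TBX3, a T-box repressor, stood at 2.39, 1.35 and 2.97 CPM and at 16.9, 16.1 and 18.3 CPM (2.93, SE 0.52, adjusted p = 0.00997). The groups overlapped in none of these 3 genes, which for SOX4 and TBX3 was a condition of the rule that named them. Among all tested genes 16.7% did not overlap.

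HOX genes, the positional homeodomain factors, gave 3 lower and 0 higher of 21 tested, against 0.677% and 0.439% of all genes. Their median log2 change was -0.24, and -0.43 without Actin KO library 1. HOXB4 stood at 13.4, 7.86 and 10.8 CPM in the Actin KO libraries and at 0.199, 0.806 and 0.697 CPM in the ACTB-WT libraries (-4.16, SE 0.63, adjusted p = 0.00268), a call lost under limma-voom (adjusted p = 0.147). HOXB8 and HOXA3 were near 0 in ACTB-WT too, at 0.314 and 0.277 CPM against 11.3 and 7.37 CPM, with calls kept only without ACTB-WT library 2 for HOXB8 and only without ACTB-WT library 3 for HOXA3 (adjusted p up to 0.219 and 0.160 otherwise). HOXB7, of the same cluster as HOXB4 and HOXB8, stood at 130, 105 and 162 CPM and at 123, 106 and 169 CPM (0.00, adjusted p = 0.997). The abundant HOXA9 and HOXA10 stood at 39.3 and 29.4 CPM and at 35.6 and 34.0 CPM, neither called.

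NR2F1 (COUP-TF1), an orphan nuclear receptor, stood at 68.3, 73.8 and 74.1 CPM in the Actin KO libraries and at 17.9, 37.2 and 29.6 CPM in the ACTB-WT libraries (log2 change -1.34, SE 0.24, adjusted p = 0.0109). Enzymes of retinoid metabolism fell beside it. ALDH1A3, which makes retinoic acid, stood at 148, 150 and 132 CPM and at 37.8, 32.2 and 39.9 CPM (-1.97, SE 0.16, adjusted p = 6.87e-06), and DHRS3, which reduces retinal to retinol, at 227, 288 and 249 CPM and at 118, 119 and 97.6 CPM (-1.19, SE 0.16, adjusted p = 0.000888). No ACTB-WT library reached an Actin KO library in any of the 3 genes, which held for 9.08% of all tested genes. The retinoid carrier CRABP2 stood at 292 and 327 CPM (0.17) and the receptor RARA at 16.4 and 7.82 CPM (-1.07, adjusted p = 0.406), neither of them called. These retinoid genes were grouped after their values were seen.

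Some keratins and surface proteins of stratified epithelia rose from low levels. Of 15 keratins tested 2 rose and 0 fell, against 0.439% and 0.677% of all genes, and 13 had positive values. The median log2 change was 0.73, and ran from 0.43 with a minimum of 5 CPM to 1.07 without Actin KO library 1. KRT13, a keratin of non-cornified stratified epithelium, stood at 0, 1.23 and 0.228 CPM in the Actin KO libraries and at 56.9, 47.3 and 33.8 CPM in the ACTB-WT libraries (6.51, SE 1.00, adjusted p = 0.00391). KRT17 rose from 2.18 to 26.2 CPM (3.58, adjusted p = 0.0149), lost without Actin KO library 1 or 2 or ACTB-WT library 3 (up to 0.232), and its reads can be shared with close copies. The simple keratins that make up most keratin RNA gave small uncalled values: KRT8 stood at 2314, 2183 and 3053 CPM and at 3100, 3323 and 2477 CPM (0.24), KRT19 at 2022 and 2541 CPM (0.33) and KRT18 at 4549 and 6075 CPM (0.42, adjusted p = 0.108). KRT15, a basal-cell keratin, had a negative value of -0.74.

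Over the whole stratified list 19 of 34 genes were tested, 4 rose (0.439% of all genes) and 0 fell, with a median log2 change of 0.17 that ran from -0.02 to 0.31 over the alternatives and was negative without Actin KO library 3. The list went both ways, with 12 positive and 7 negative values and a lowest value of -2.40. For 5 of the 19 every ACTB-WT library lay above every Actin KO library, against 7.64% of all genes. For 4 every ACTB-WT library lay below, against 9.08%. The other called members were LY6D, a GPI-anchored surface protein (3.21 to 172 CPM, 5.74, adjusted p = 5.41e-09), and the calcium-binding S100A2 (39.8 to 79.5 CPM, 1.00, adjusted p = 0.0357), the latter kept only without Actin KO library 2 (up to 0.170). A mixed list of simple-epithelium and intestinal genes gave 2 higher of 14 tested, ANXA10 and ALPP, against 0.439% of all genes. This is not a count of intestinal genes alone. ANXA10 was also the 1 higher gene of 6 tested in a list of gastric and pancreatic surface markers. That list had 2 positive and 4 negative values and a median of -0.08, which ran from -1.06 to 0.78 over the alternatives. Of the 14 genes of the mixed list, 13 had positive values, and their median was 0.44 (0.29 with a minimum of 5 CPM and 0.63 without ACTB-WT library 1). ANXA10 had 1 count in the 3 Actin KO libraries and stood at 12.9, 21.1 and 17.8 CPM in the ACTB-WT libraries (adjusted p = 0.000494). ALPP stood at 0.133, 0 and 0.114 CPM and at 18.5, 12.0 and 10.3 CPM (adjusted p = 0.0182; lost without any 1 Actin KO library or ACTB-WT library 1, up to 0.0889), and its reads can be shared with its near copy ALPG, which stood at 0 CPM in the Actin KO libraries and 3.83 CPM in ACTB-WT. Of 10 S100 genes 2 rose, of 12 genes of the LY6 family 1, and of 10 annexins 1 against a family median of -0.38. These counts stand beside 0.439% higher of all genes.

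**Figure D3:**
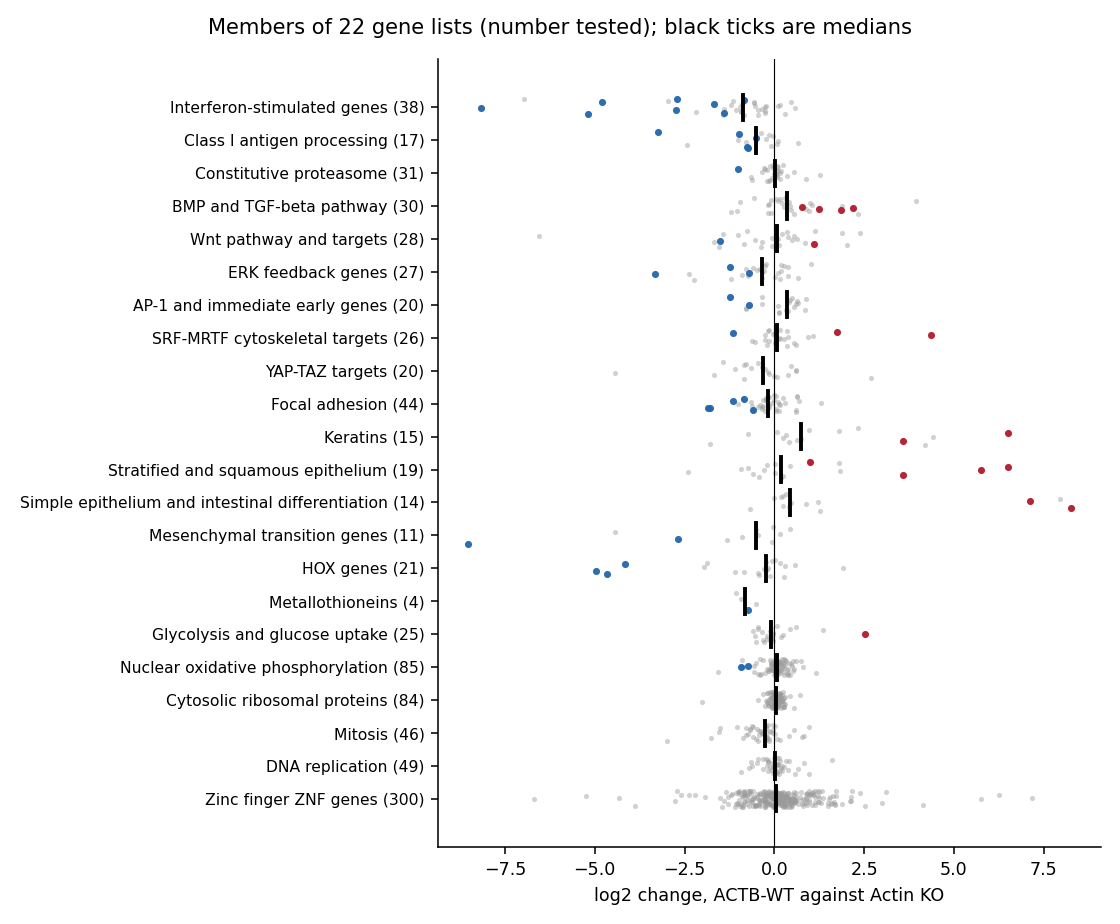
The log2 change of ACTB-WT against Actin KO for each tested member of 22 lists (numbers tested in brackets), called members coloured and medians as black ticks. Interferon-stimulated genes lie at a median of -0.89 and class I antigen genes at -0.50, keratins at 0.73 and BMP and TGF-beta genes at 0.35, while ribosomal proteins lie at 0.04.

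Genes tied to actin itself gave few calls. Of 61 tested factors of actin assembly and crosslinking none passed, which is close to the 1.12% of all genes. There were 22 positive and 39 negative values, and the median log2 change was -0.15. For 12 of the 61 every ACTB-WT library lay below every Actin KO library, against 9.08% of all genes. For 5 every ACTB-WT library lay above, against 7.64%. Cofilin CFL1 stood at 3699 and 4409 CPM (0.25, adjusted p = 0.345) and profilin PFN1 at 1306 and 1213 CPM (-0.11, adjusted p = 0.863). Of 26 targets of SRF and MRTF, the factors that monomeric actin holds back, 2 rose and 1 fell, against 0.439% and 0.677% of all genes. The median was 0.08. TAGLN, an actin-bundling calponin of contractile cells, stood at 13.4, 1.10 and 6.73 CPM in the Actin KO libraries and at 161, 129 and 141 CPM in the ACTB-WT libraries (4.35, SE 0.56, adjusted p = 0.00172), and PDLIM5, an actin-associated PDZ and LIM domain protein, at 26.3, 49.2 and 44.2 CPM and at 148, 128 and 122 CPM (1.73, SE 0.21, adjusted p = 0.000385). Abundant members that were not called had values near 0: FLNA at -0.16, ACTN4 at 0.12, TPM2 at 0.15 and MYH9 at 0.01.

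Of 20 YAP and TAZ targets 0 passed, with 6 positive values and a median log2 change of -0.31, which was -0.53 without ACTB-WT library 1. The classical targets CCN1 (5.85 and 8.86 CPM) and ANKRD1 (2.12 and 3.23 CPM) were rare here and not called. Chromatin-remodelling genes gave 0 of 40, with a median of 0.11 (0.03 without Actin KO library 1), and SMARCA4, the ATPase named in the series title, stood at 180, 161 and 205 CPM and at 220, 226 and 180 CPM (0.19, adjusted p = 0.750). Genes of cell-cell junctions gave 0 of 36, with a median of 0.03. The share called over all tested genes was 1.12%, beside 0 in each of these lists.

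Some caveolar and adhesion genes fell, and 4 of the 5 called lie on the long arm of chromosome 7. CAV1, the caveolar coat protein, stood at 180, 154 and 160 CPM in the Actin KO libraries and at 42.1, 49.5 and 44.3 CPM in the ACTB-WT libraries (log2 change -1.86, SE 0.15, adjusted p = 6.39e-06), and its neighbour CAV2 at 148, 196 and 148 CPM and at 35.0, 51.5 and 54.2 CPM (-1.80, SE 0.20, adjusted p = 0.000162). Zyxin, ZYX, which senses tension at focal adhesions, stood at 434, 460 and 494 CPM and at 152, 256 and 221 CPM (-1.14, SE 0.20, adjusted p = 0.00754). In these 3 genes the groups did not overlap, and all 3 fell further than the median of -0.39 of the genes around them. The groups did not overlap for 16.7% of all tested genes and for 29.6% of those on chromosome 7. Of 44 focal adhesion genes 5 fell and 0 rose, against 0.677% and 0.439% of all genes, but outside chromosomes 7 and 21 only CAVIN3 of 39 was called (58.8 to 33.0 CPM, -0.83, adjusted p = 0.0499, lost in each of the 6 fits, up to 0.178), and the caveolar coat partner CAVIN1 stood at 169 and 142 CPM (-0.25, adjusted p = 0.639). VCL (0.59), PXN (-0.59) and TLN1 (-0.06), core adhesion proteins, were not called.

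Of 22 mesenchymal genes 11 were tested and 2 fell, against 0.677% of all genes, with a median log2 change of -0.51 that ran from -0.69 to -0.18 over the alternatives, the latter without Actin KO library 3. SPARC, a matrix glycoprotein, stood at 202 ± 39.3 CPM in the Actin KO libraries and at 31.3 ± 9.81 CPM in the ACTB-WT libraries (-2.69, SE 0.21, adjusted p = 3.59e-06), and VIM had no count in ACTB-WT against 6.63, 3.07 and 7.53 CPM (at least 35.0-fold lower, adjusted p = 0.0118, and 0.194 under limma-voom). S100A4 and CD44 stood at -0.03 and -0.07. Markers of other cell types gave no call: 3 of 9 fibroblast, 0 of 6 endothelial, 3 of 8 blood, 5 of 7 neural and 2 of 8 liver and kidney markers were expressed enough to be tested, and the summed fibroblast level was 5.82 to 9.21 CPM in the Actin KO libraries and 2.39 to 16.0 CPM in ACTB-WT.

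Some growth-factor response genes fell. Of 27 genes known to follow ERK activity 3 fell and 0 rose, against 0.677% and 0.439% of all tested genes, and the median log2 change was -0.34. For 10 of them every ACTB-WT library lay below every Actin KO library, against 9.08% of all genes. FOSL1, an AP-1 subunit, stood at 310, 299 and 334 CPM and at 139, 146 and 119 CPM (-1.22, SE 0.13, adjusted p = 0.000159). EREG, an EGF-receptor ligand, fell from 16.7 to 1.74 CPM (-3.32, adjusted p = 0.0140; lost without Actin KO library 2 or ACTB-WT library 2 or 3, up to 0.0573), and IER3 from 1001 to 619 CPM (-0.69, adjusted p = 0.00864; 0.0578 without ACTB-WT library 2). The feedback genes named next were not called: DUSP6 stood at 28.9 and 32.8 CPM (0.19), ETV4 at 88.4 and 106 CPM (0.26), DUSP4 at 87.5 and 52.8 CPM (-0.73, adjusted p = 0.110) and MYC had a value of 0.10. Of 20 AP-1 and immediate early genes tested, which include FOSL1 and IER3, 14 had positive values, with 0.55 for JUND and 0.49 for JUNB, neither called.

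Metabolic and transport genes changed singly. SLC2A1, the GLUT1 glucose transporter, stood at 59.2, 81.5 and 86.8 CPM in the Actin KO libraries and at 438, 437 and 438 CPM in the ACTB-WT libraries (log2 change 2.53, SE 0.18, adjusted p = 1.35e-06). It was the 1 called gene of 25 in glycolysis and of 219 solute carriers tested, against 1.12% of all tested genes. The glycolytic enzymes ENO1 and GAPDH stood at 4923 and 4516 CPM (-0.12) and at 8153 and 9244 CPM (0.18), and the median of the glycolysis list was -0.10 (-0.07 without Actin KO library 2). ODC1, the first enzyme of polyamine synthesis, rose from 263 to 481 CPM (0.87, SE 0.13, adjusted p = 0.0033). PHGDH, the first enzyme of serine synthesis, rose from 214 to 334 CPM (0.64, adjusted p = 0.0182; kept only without ACTB-WT library 3, up to 0.117). It was the 1 called gene of 29 ATF4 and one-carbon genes, against the same 1.12%.

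Metallothioneins, which buffer zinc and copper, had negative values in each of the 4 members tested of 11 in the table, from -1.08 to -0.50 on the log2 scale, with a median of -0.83. MT2A stood at 2790, 2793 and 2786 CPM in the Actin KO libraries and at 1687, 1747 and 1595 CPM in the ACTB-WT libraries (-0.73, SE 0.09, adjusted p = 0.000545), and MT1E at 1260, 1277 and 1440 CPM and at 900, 1064 and 852 CPM (-0.50, adjusted p = 0.0506). MT1X stood at 43.2 and 22.8 CPM (-0.93, adjusted p = 0.157). The copper chaperone ATOX1 fell from 157 to 79.9 CPM (-0.97, adjusted p = 0.0109; lost without Actin KO library 1 or ACTB-WT library 1, up to 0.0745).

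Secreted and membrane proteins also changed in both directions, and they were grouped after their values were seen. On the rising side were the heparin-binding growth factor MDK (331 to 606 CPM, log2 change 0.87, adjusted p = 0.000732), the complement protease CFD (165 to 316 CPM, 0.94, adjusted p = 0.000545), the Wnt antagonist DKK1 (1.11, adjusted p = 9.73e-06) and the adipogenesis factor ADIRF (471 to 862 CPM, 0.87, adjusted p = 0.000545). PTP4A1, a prenylated phosphatase, stood at 18.4, 16.2 and 20.2 CPM and at 81.1, 57.4 and 81.7 CPM (2.00, SE 0.26, adjusted p = 0.000704). These 5 genes kept their call in each of the 6 fits without a library.

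On the falling side were receptors and their partners. RAMP1, the subunit that turns a class B receptor into the CGRP receptor, stood at 121, 115 and 95.8 CPM in the Actin KO libraries and at 45.1, 41.1 and 30.1 CPM in the ACTB-WT libraries (log2 change -1.51, SE 0.21, adjusted p = 0.000982). ADGRF1, an adhesion G protein coupled receptor, stood at 90.9, 95.6 and 63.7 CPM and at 22.3, 15.4 and 16.9 CPM (-2.20, SE 0.24, adjusted p = 0.000162). SECTM1, a secreted and transmembrane ligand of T and NK cells, stood at 97.0, 89.5 and 108 CPM and at 39.4, 30.4 and 32.1 CPM (-1.54, SE 0.20, adjusted p = 0.000732). None of the 3 overlapped between groups, but they were picked after their values were seen. Among all tested genes 16.7% did not overlap. The calcium buffer CALB2 (33.7 to 7.23 CPM, -2.21, adjusted p = 0.000732), the heparan sulfate sulfotransferase HS3ST1 (114 to 24.8 CPM, -2.21, adjusted p = 0.000487) and the galectin LGALS1 (1551 to 944 CPM, -0.72, adjusted p = 0.000435) also fell and were called in each of the 6 fits.

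The RAB27 effectors SYTL3 and MLPH stood at 128, 138 and 140 CPM against 59.2, 55.4 and 57.7 CPM and at 120, 145 and 138 CPM against 67.8, 64.4 and 52.1 CPM (log2 change -1.23 and -1.13, adjusted p = 0.000305 and 0.00294). Among 46 RAB GTPases tested 1 rose, against 0.439% of all tested genes. This was RAB4A, from 42.7 to 82.6 CPM (0.95), which was called in none of the 6 fits (adjusted p up to 0.139). TIAM1, a RAC exchange factor on chromosome 21, stood at 25.1, 66.4 and 53.4 CPM and at 1.59, 1.88 and 9.24 CPM (-3.51, SE 0.56, adjusted p = 0.00424), and the receptor LPAR1 fell from 6.81 to 0.193 CPM (-4.92, adjusted p = 0.0220; kept only without Actin KO library 3 or ACTB-WT library 2, up to 0.0838).

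Large housekeeping families had medians near 0, and their counts of called genes stand beside 1.12% of all tested genes. Of 84 cytosolic ribosomal protein genes 0 passed (median log2 change 0.04), of 78 mitochondrial ribosomal genes 0 (0.00), of 50 splicing factors 0 (0.06), of 49 replication genes 0 (0.03), of 25 cholesterol genes 0 (-0.03) and of 29 p53 targets 0 (-0.04). Of 51 translation factors 1 rose, EIF3B on chromosome 7, with a median of 0.02, and of 72 ribosome biogenesis genes PPAN rose (0.81, adjusted p = 0.0217; kept only without Actin KO library 2 or ACTB-WT library 3, up to 0.116) and URB1 on chromosome 21 fell (-1.08, adjusted p = 0.0249; kept only without ACTB-WT library 3, up to 0.104). Of 85 nuclear genes of oxidative phosphorylation 2 fell, ATP5PF and NDUFV3, both on chromosome 21 (NDUFV3 was kept in none of the 6 fits, up to 0.178), and of the 78 outside chromosomes 7 and 21 none was called (median 0.08). Of 300 ZNF genes none passed (0.06). Of the 103 lists 56 had no called member, and 80 of the 155 called genes belonged to no list.

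Mitotic genes had a negative median without a call, against 1.12% called of all tested genes. Of 46 tested, 9 had positive and 37 negative values, with a median log2 change of -0.27 (-0.39 to -0.23 over the alternatives). The mitotic kinase PLK1 stood at 201, 181 and 178 CPM in the Actin KO libraries and at 127, 120 and 125 CPM in the ACTB-WT libraries (-0.59, SE 0.14, adjusted p = 0.0530), and FOXM1, which drives the mitotic programme, had a value of -0.52. MKI67 (-0.37), CCNB1 (-0.43) and AURKB (0.01) were not called.

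Genes on chromosomes 7 and 21 departed from the other chromosomes. Of 659 tested genes of chromosome 7, 10 rose and 21 fell (4.70%), and of 151 on chromosome 21, 0 rose and 10 fell (6.62%), against 114 of 13072 elsewhere (0.872%). Among genes of at least 5 CPM on all other chromosomes, 8498 in number, the median log2 change was 0.00. Of 181 windows of 10 Mb with at least 15 genes of that level, the 6 beyond 0.4 in either direction all lay on chromosomes 7 and 21. Window medians on the other chromosomes ran from -0.22 to 0.37, so the upper end lay just inside that cut. Stretches within chromosome 7 were chosen after the values were seen, with ACTB as the first boundary, and DNA content was not measured in these libraries.

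**Figure D4:**
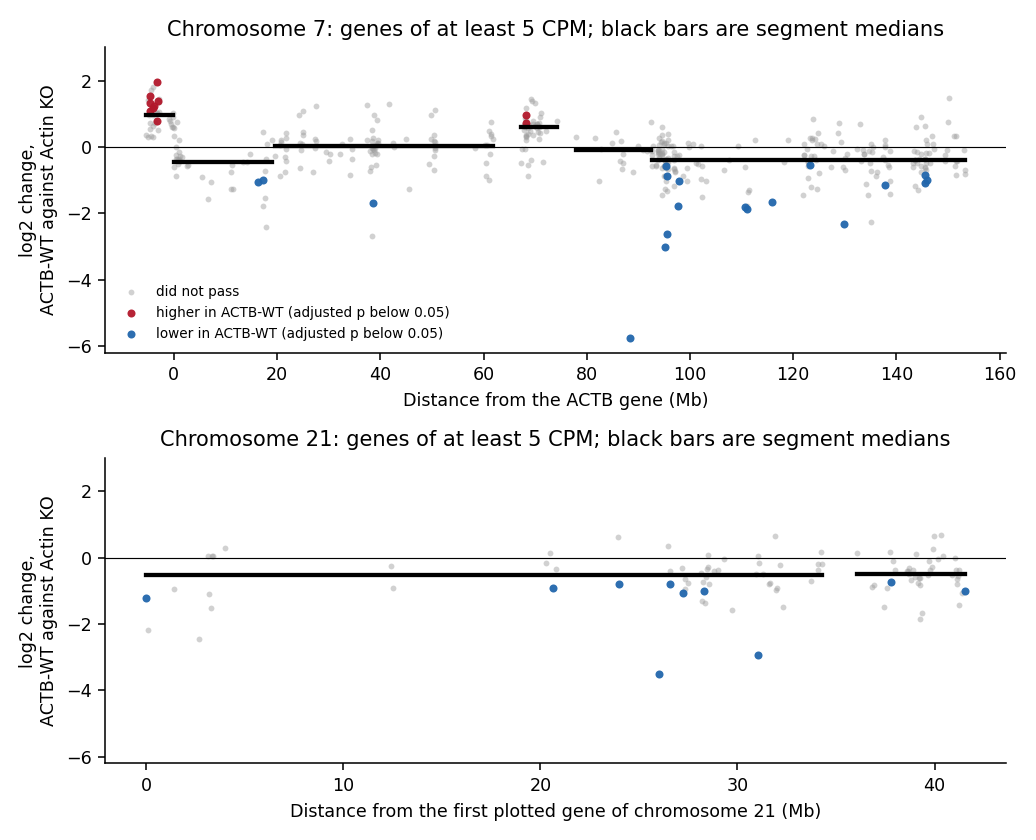
The log2 change of ACTB-WT against Actin KO for each gene of at least 5 CPM, against the distance in Mb from ACTB for chromosome 7 (upper panel) and from the first plotted gene for chromosome 21 (lower panel), with called genes coloured and stretch medians as black bars. The 34 genes before ACTB lie at a median of 0.97, the last stretch of chromosome 7 at -0.39, and the genes of chromosome 21 at -0.50 over both bars.

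The end of the short arm of chromosome 7 was higher. All 34 genes between the first gene and ACTB had positive values, with a median log2 change of 0.97 (0.90 to 1.01 over the alternatives), and 8 were called: SUN1, GET4, ADAP1, INTS1, ELFN1-AS1, NUDT1, EIF3B and BRAT1. INTS1, a subunit of the Integrator complex that processes small nuclear RNAs, stood at 85.8, 59.5 and 87.0 CPM in the Actin KO libraries and at 186, 177 and 164 CPM in the ACTB-WT libraries (1.18, SE 0.19, adjusted p = 0.00462), and the antisense transcript ELFN1-AS1 at 47.0, 54.3 and 54.5 CPM and at 124, 108 and 132 CPM (1.22, SE 0.20, adjusted p = 0.00462). EIF3B, the scaffold of the initiation factor eIF3, stood at 471, 478 and 486 CPM and at 838, 934 and 714 CPM (0.79, adjusted p = 0.0231), and was kept only without ACTB-WT library 3 (up to 0.120). Of the 8, INTS1 and ELFN1-AS1 were called in each of the 6 fits and SUN1 in none (adjusted p up to 0.178). GET4 was kept only without ACTB-WT library 2 (up to 0.157), ADAP1 and BRAT1 only without Actin KO library 3 or ACTB-WT library 3 (up to 0.116 and 0.144), and NUDT1 was lost without Actin KO library 1 or 3 or ACTB-WT library 1 (up to 0.0715). Just past ACTB the sign turned: the 38 genes up to 25 Mb had a median of -0.45, with 32 negative values and 2 called lower. The counts called in both stretches stand beside 0.439% higher and 0.677% lower of all tested genes.

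Further along chromosome 7 the stretches alternated. The 86 genes from 25 to 70 Mb had a median log2 change of 0.04 with 1 called lower, the 44 from 70 to 80 Mb 0.61 with 37 positive values and 2 called higher (BUD23, kept in none of the 6 fits, and ABHD11, kept only without Actin KO library 3), and the 18 from 80 to 98 Mb -0.08 with 1 called lower. The 206 genes from 98 Mb to the end had a median of -0.39, with 156 negative values and 15 called lower. Over all tested genes 0.439% were called higher and 0.677% lower. Of the 8498 genes of at least 5 CPM on all other chromosomes, 48 were called higher and 53 lower. VGF, a secreted neuropeptide precursor in the last stretch of chromosome 7, stood at 453, 423 and 464 CPM and at 84.9, 66.0 and 66.7 CPM (-2.62, SE 0.17, adjusted p = 4.04e-07), beyond the stretch median of -0.39, and FAM3C, a secreted factor, fell from 65.4 to 20.5 CPM (-1.67, adjusted p = 0.00213). RHEB, the GTPase that activates mTORC1, fell from 158 to 78.8 CPM (adjusted p = 0.00706).

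On chromosome 21 the 100 genes of at least 5 CPM had a median log2 change of -0.50 and 82 negative values. SOD1, the cytosolic superoxide dismutase, stood at 672, 592 and 619 CPM in the Actin KO libraries and at 346, 383 and 342 CPM in the ACTB-WT libraries (-0.81, SE 0.11, adjusted p = 0.000982), and ATP5PF, a subunit of ATP synthase, at 112, 114 and 134 CPM and at 59.1, 71.1 and 60.5 CPM (-0.92, SE 0.16, adjusted p = 0.00732). CBR3, a carbonyl reductase, fell from 28.6 to 3.73 CPM (-2.94, adjusted p = 0.000494), further than the stretch median of -0.54. GATD3B (-1.22, adjusted p = 0.0469; kept only without Actin KO library 1, up to 0.183) lies in a duplicated stretch whose copies can share reads.

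The stretches were even across libraries. As the median deviation of log2(CPM + 1) from the Actin KO mean, the genes before ACTB gave 0.93, 0.97 and 0.86 in the ACTB-WT libraries, 0.57, 0.77 and 0.79 in the ACTB-mut libraries and -0.01, 0.02 and 0.09 in the Actin KO libraries. In the 9 SETD3 libraries, whose table was normalised separately, the same genes gave 0.66 to 1.32 against the Actin KO mean, the stretch from 70 to 80 Mb gave 0.41 to 0.61, the last stretch of chromosome 7 -0.39 to -0.25 and chromosome 21 -0.75 to -0.28. All 15 libraries other than Actin KO thus lay on the same side of the Actin KO mean in the first, 70 to 80 Mb and last stretches of chromosome 7. On chromosome 21 the genes before 40 Mb had a median of -0.54 in ACTB-WT and 0.06 in ACTB-mut, while those beyond it had -0.50 and -0.78. Whether gene copy number differs between these lines was not tested.

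**Figure D5:**
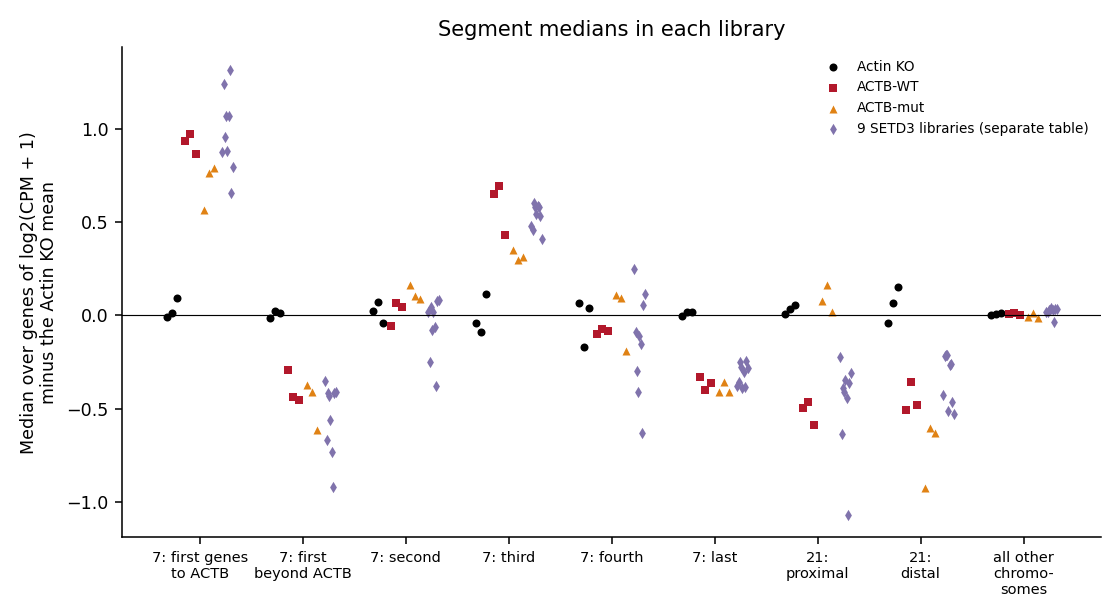
The median over genes of log2(CPM + 1) minus the Actin KO mean (vertical axis) for each stretch (horizontal axis), 1 point per library, coloured by group. The 3 ACTB-WT libraries lie between 0.86 and 0.97 for the first stretch of chromosome 7 and near 0 for all other chromosomes.

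Some genes had no count in 1 group and a count in each library of the other. Of those with a mean of at least 1 CPM in the other group, 64 had no count in the 3 ACTB-WT libraries, 7 of them called. For the 3 Actin KO libraries the number was 35, 2 of them called. The rest were not called or not tested. The ACTB-WT libraries were shallower, and the floor of 3 counts stood at 0.165 CPM there and at 0.123 CPM in Actin KO. The numbers 64 and 35 are therefore not to be compared directly. The long non-coding AC124283.1 stood at 4.64, 8.47 and 6.62 CPM in Actin KO (at least 40.2-fold lower in ACTB-WT, adjusted p = 0.00663) and AC010542.4 at 5.31, 3.93 and 4.91 CPM (at least 28.6-fold, adjusted p = 0.00467). RPS3AP6, a pseudogene copy of the ribosomal gene RPS3A, stood at 0 CPM in the Actin KO libraries and at 11.3, 27.3 and 68.3 CPM in the ACTB-WT libraries (at least 292-fold higher, adjusted p = 0.00391), while RPS3A, from which its reads cannot be surely separated, stood at 199 and 236 CPM. Under limma-voom the adjusted p was 0.0779 for AC124283.1, 0.0940 for AC010542.4 and 0.0730 for RPS3AP6.

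The ACTB-mut libraries are set beside these values without a test of likeness, since both contrasts use the same Actin KO libraries. In the same fit 128 genes differed between ACTB-mut and Actin KO (0.922%) and 172 between ACTB-mut and ACTB-WT (1.24%). Median log2 changes in ACTB-mut against Actin KO were -0.47 for interferon-stimulated genes, -0.28 for class I antigen genes, 0.13 for the BMP and TGF-beta list, 0.02 for keratins and 0.09 for metallothioneins, beside -0.89, -0.50, 0.35, 0.73 and -0.83 in ACTB-WT. IFI6 stood at 32.5 CPM and OAS3 at 26.8 CPM in ACTB-mut, close to their ACTB-WT means of 21.3 and 30.6 CPM. SLC2A1 stood at 77.1 CPM, ID3 at 219 CPM, SOX4 at 68.0 CPM and HOXB4 at 10.2 CPM in ACTB-mut, nearer to the Actin KO means of 75.8, 197, 51.5 and 10.7 CPM. CFD stood at 314 CPM and PDLIM5 at 129 CPM, near their ACTB-WT means of 316 and 132 CPM.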

How the data were processed

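RNA was poly(A)-selected and sequenced in 18 HCT-116 libraries. The authors deposited gene-level expected counts from RSEM, as 1 table for the actin libraries and 1 for the SETD3 libraries; per the submitters' processing notes the tools were Trim Galore 0.4.5, cutadapt 1.15, Bowtie2 and RSEM 1.2.28 and the genome build GRCh38. The release of the annotation and the strand setting are not given in the sources used here, so overlapping genes, antisense pairs and close copies may share reads. Of the expected counts, 83.4% were whole numbers, and all were rounded. 33 symbols occurred on more than 1 row and were kept by identifier, and no sample column was left unmapped.

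Genes were filtered with edgeR 4.0.16 (filterByExpr) and tested in 1 quasi-likelihood fit of the 9 libraries of the actin table with TMM factors (R 4.3.3), with Benjamini-Hochberg adjustment over 13882 genes. Fold changes are log2, and levels are CPM with the SD over 3 libraries. Lists are described by counts and medians over the members that passed the filter, which is not independent of a gene's level in either group, and setting members without counts at their bound moved no list median at 2 decimals. Positions came from GENCODE 29, which matched 58496 rows, and promoters from RefSeq. Python 3.11.15 wrote the summaries. On simulated data with 13123 genes the fit recovered 36 of 100 genes changed 2-fold and 80 of 100 changed 4-fold, with 6 false calls. The changed genes were drawn only from those with a mean of at least 5 CPM, so recovery at lower levels was not measured. Alternatives were DESeq2 1.42.0, limma-voom (limma 3.58.1), other size factors and filters, GC offsets, a replicate block and leaving out each library. Genes named by rule were, in each direction, the 20 called genes with the largest change among those of at least 5 CPM and no overlap between groups, the 10 called genes with the highest mean level, up to 4 called members of each list or, where none was called, its most abundant members, and genes without a count in a group. Members and lists were chosen with earlier results of these data known.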

Additional observations from a re-analysis of the deposited data

How the results depend on the processing

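With DESeq2 358 genes were called (167 higher, 191 lower, 218 of them at least 2-fold), and without the filter on low counts 320 (129, 191 and 213), against 155 (61, 94 and 106) in edgeR's quasi-likelihood fit with Benjamini-Hochberg adjustment. Limma-voom called 106, of which 48 were higher, 58 lower and 61 at least 2-fold. Leaving out 1 library gave 79 to 106 called genes, 29 to 42 higher, 50 to 64 lower and 61 to 82 at least 2-fold, with the fewest without Actin KO replicate 1. Leaving out the genes of chromosomes 7 and 21, chosen after seeing the data, left 114 called (51 higher, 63 lower, 77 at least 2-fold). RLE factors gave 151, upper-quartile factors 161, a minimum of 5 CPM 179, the 6 libraries alone 119 and GC offsets 175. The share of called genes that were higher was 39.4% in the main analysis and ran from 35.2% to 46.9%. Of the 155 genes, 55 were called in every alternative that tested them.

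With the replicate number as a block 89 genes were called (33 higher, 56 lower, 69 at least 2-fold), all of them among the 155. Same-numbered libraries of different groups had correlations of their deviations from -0.05 to 0.07, so the numbers were not taken to pair the samples.

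No called value changed sign. The sign of the median changed for some lists: stratified epithelium (0.17 to -0.02 without Actin KO replicate 3), fibroblast markers (0.57 to -0.58) and neural markers (0.47 to -0.07) without ACTB-WT replicate 3, EGFR family (-0.24 to 0.22) without Actin KO replicate 2, chemokines (-0.21 to 0.03) without Actin KO replicate 3 and P450 genes (0.19 to -0.17) with a minimum of 5 CPM. It also changed for laminins (0.18 to -0.04) without Actin KO replicate 2, for serpins (-0.18 to 0.05) without ACTB-WT replicate 3, and for lists with medians nearer 0. Among the genes named, limma-voom ended the calls of VIM, HOXB4, RPS3AP6, AC124283.1 and AC010542.4, which every fit without a library kept, and of OAS1, IRF9, PARP9, PARP10, HLA-E, PSMC2, IFNGR2, HOXA3, HOXB8, KRT17, ALPP, EREG, LPAR1, CAVIN3, SUN1, GET4, BRAT1 and GATD3B, which some of those fits lost as well. The 6 libraries alone also ended the calls of AC010542.4 (adjusted p = 0.0610), PSME2, ABHD11, S100A2 and SNHG19, and other size factors those of OAS1, IFNGR2, CAVIN3, HLA-E and GATD3B. At this depth no gene under 1 CPM passed. In simulated data 36 of 100 genes changed 2-fold were recovered, all drawn from genes of at least 5 CPM.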

Other observations

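Uncalled genes included some whose counts switched between libraries of 1 group. The readthrough transcript NME1-NME2 stood at 173, 0 and 205 CPM in Actin KO, at 0 CPM in each ACTB-WT library and at 0, 0 and 165 CPM in ACTB-mut (edgeR adjusted p = 0.622), while its component genes NME1 and NME2, which encode nucleoside diphosphate kinases, stood at 513 and 518 CPM and at 2941 and 2892 CPM. The histone gene H2AC19 stood at 22.2, 25.2 and 0 CPM in Actin KO, at 0 CPM in each ACTB-WT library and at 0, 8.88 and 17.6 CPM in ACTB-mut (adjusted p = 0.441). Reads of both can be shared with overlapping or near-identical genes.

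The 15 mitochondrially encoded genes tested had a median log2 change of -0.15 in ACTB-WT and 1.02 in ACTB-mut against the same Actin KO libraries, and none was called in ACTB-WT; the ACTB-WT median was 0.00 without ACTB-WT replicate 3. The 3 tested GATA genes had a median of 1.22, and 0.53 without ACTB-WT replicate 2, led by GATA2, a zinc-finger factor, at 11.5 and 27.8 CPM (1.28, adjusted p = 0.193).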
